A study of Mus musculus with 6 samples.

Results

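The genes described are the 4 alpha2delta subunit genes of voltage-gated calcium channels, *Cacna2d1*, *Cacna2d2*, *Cacna2d3* and *Cacna2d4*, and *Lrtm2*, a gene that lies inside *Cacna2d4*. These 5 of the 54532 genes with deposited read counts were taken by gene symbol, in lung RNA of 6 mice after hemorrhagic shock (HS). GRdim/dim mice carry a point mutation in *Nr3c1*, the glucocorticoid receptor (GR) gene, that impairs dimerization of the receptor, and GR+/+ mice were their wildtype littermates. The mutation is carried in the germline and not limited to the lung. Both genotypes were on the 129/SvEv x C57BL/6 background and 10 to 16 weeks old. All mice were anesthetized and ventilated, held at a mean arterial pressure of 35 mmHg for 1 h by blood withdrawal, and resuscitated for 4 h with their own blood, colloid and norepinephrine. The lungs of 3 GR+/+ mice (2 female, 1 male) and 3 GRdim/dim mice (1 female, 2 male) were sequenced, 1 library per mouse, and lungs without HS were not analysed here. The genes were chosen because a difference between the genotypes in these same libraries was known, so the genotype differences of the 5 genes are given as a description, without p-values, and their place relative to the threshold used for other genes supports nothing.

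Voltage-gated calcium channels open when the membrane is depolarized and admit calcium that drives muscle contraction, secretion and transmitter release. Their pore subunit is accompanied by a cytoplasmic beta subunit and an extracellular alpha2delta subunit, which is made from 1 gene, cleaved, and anchored to the outer face of the membrane. Alpha2delta subunits bring more channels to the surface and change their gating, and they also bind matrix proteins such as thrombospondins. *Cacna2d1* is the widespread form of heart, muscle and vessel and a target of gabapentin. *Cacna2d2* and *Cacna2d3* are best known from the nervous system, and *Cacna2d4* from photoreceptors of the retina. *Lrtm2* encodes a membrane protein with leucine-rich repeats, a motif of many receptors at cell contacts.

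Total counts were 15687734 to 32082940 per library. From these, levels are given as CPM (counts scaled to a common library total), normalized by edgeR's TMM factors, and 3 counts correspond to 0.0953 to 0.194 CPM. That floor covers counting error only. The labelled tissue was checked by its markers: the summed level of 7 alveolar type 2 cell markers was 16951 to 24687 CPM in GR+/+ and 17091 to 25139 CPM in GRdim/dim libraries. *Nr3c1* itself was at 138, 145 and 162 CPM in GR+/+ and 159, 150 and 120 CPM in GRdim/dim replicates 1, 2 and 3, and a gene count does not show the point mutation. *Xist*, which is transcribed from the inactive X chromosome, was at 309 to 463 CPM in 3 libraries (GR+/+ replicates 2 and 3, GRdim/dim replicate 2) and below 1 CPM in the other 3. Reads of 4 Y-linked genes summed to 203 to 260 CPM in the other 3 libraries and to at most 0.0600 CPM in those with *Xist*, so the libraries match the numbers of female and male mice given by the study.

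*Lrtm2* (ENSMUSG00000055003) occupies chr6:119315133-119330766 on the minus strand of GRCm38. *Cacna2d4* (ENSMUSG00000041460) spans chr6:119236526-119352407 on the plus strand, and *Lrtm2* lies wholly within intron 26 of the 37 introns of its longest transcript. The exons of the pair share 0 bases. The use of strand in counting is not given in the sources used here, and without it reads of unspliced *Cacna2d4* RNA across *Lrtm2* cannot be told apart from *Lrtm2* reads. The annotation also has short *Cacna2d4* transcripts that start beside *Lrtm2* and run away from it: one starts 3 bases and another 36 bases from the *Lrtm2* start. Counts per gene pool these with the full-length transcripts, so they do not show which *Cacna2d4* start was used.

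The promoters of *Lrtm2* are shown because these 2 short *Cacna2d4* transcripts, neither annotated as coding, start in the first one. Both protein-coding *Cacna2d4* transcripts start far from it, at -94240 and -94171 bases relative to the *Lrtm2* start along the chromosome. RefSeq gave 2 *Lrtm2* promoters of 300 bases each, 250 before and 50 after the start, in GRCm38.p6. The first is chr6:119330717-119331016 on the minus strand, with a GC content of 62.3% and 18 CG dinucleotides. Its capitals mark the 37 bases from the *Lrtm2* start to the second of these *Cacna2d4* starts. The second is the inner start at chr6:119329155-119329454 on the minus strand, with a GC content of 60.3% and 6 CG dinucleotides. Its capitals mark TGTTCT, which begins 5 bases before the start and ends on the start base. TGTTCT is one arm of the palindromic GR response element (AGAACA and TGTTCT separated by any 3 bases).
Lrtm2 promoter 1: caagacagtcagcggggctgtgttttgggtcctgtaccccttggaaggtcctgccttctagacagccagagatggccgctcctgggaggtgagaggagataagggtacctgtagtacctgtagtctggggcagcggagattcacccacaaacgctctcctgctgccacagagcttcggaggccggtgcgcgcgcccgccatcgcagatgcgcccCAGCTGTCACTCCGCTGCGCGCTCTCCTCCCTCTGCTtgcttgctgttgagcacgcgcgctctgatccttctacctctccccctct
Lrtm2 promoter 2: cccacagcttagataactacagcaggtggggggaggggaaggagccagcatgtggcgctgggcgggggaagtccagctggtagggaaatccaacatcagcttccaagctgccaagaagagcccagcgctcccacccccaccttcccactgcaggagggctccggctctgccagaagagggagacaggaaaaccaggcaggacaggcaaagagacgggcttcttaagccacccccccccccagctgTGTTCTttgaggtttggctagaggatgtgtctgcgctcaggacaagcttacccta
Both strands were searched for both motifs, and the short one is contained in the long one. The full element was in 3 of the 32851 promoters of the table (0.00913%) and in none of those of *Lrtm2*, *Cacna2d1*, *Cacna2d2* and *Cacna2d3*. The short motif was in 6233 promoters (19.0%) and, among these genes, only in the second *Lrtm2* promoter. The promoters of *Cacna2d1*, *Cacna2d2* and *Cacna2d3* were richer in GC, at 80.0%, 75.7% and 81.3%, against a median of 52.7% over all promoters.

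*Lrtm2* had the highest mean level per length of the 5 genes and was lower in GRdim/dim lungs. It was at 58.2, 69.7 and 68.3 CPM in GR+/+ replicates 1, 2 and 3 (974, 1162 and 2150 counts). In GRdim/dim replicates 1, 2 and 3 it was at 22.9, 12.3 and 22.8 CPM (425, 295 and 353 counts). Every GRdim/dim library lay below every GR+/+ library, and GRdim/dim replicate 2 was the lowest. The means were 65.4 ± 6.26 CPM (SD, n = 3) and 19.3 ± 6.12 CPM (SD, n = 3), a 3.39-fold higher level in GR+/+, and the fitted log2 fold change of GRdim/dim over GR+/+ was -1.76 (SE 0.25).

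*Cacna2d4*, the gene around *Lrtm2*, was lower in GRdim/dim lungs by nearly the same factor, from a lower level. It was at 8.55, 10.6 and 12.7 CPM in GR+/+ replicates 1, 2 and 3 (143, 176 and 401 counts). The GRdim/dim libraries were at 2.91, 3.49 and 2.84 CPM (54, 84 and 44 counts), again all below the GR+/+ libraries. The means were 10.6 ± 2.10 CPM (SD, n = 3) and 3.08 ± 0.356 CPM (SD, n = 3), a 3.44-fold higher level in GR+/+ and a log2 fold change of -1.78 (SE 0.28). Among the 16568 genes with enough reads to be fitted, *Cacna2d4* and *Lrtm2* had the 67th and the 69th lowest log2 fold changes.

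**Figure D1:**
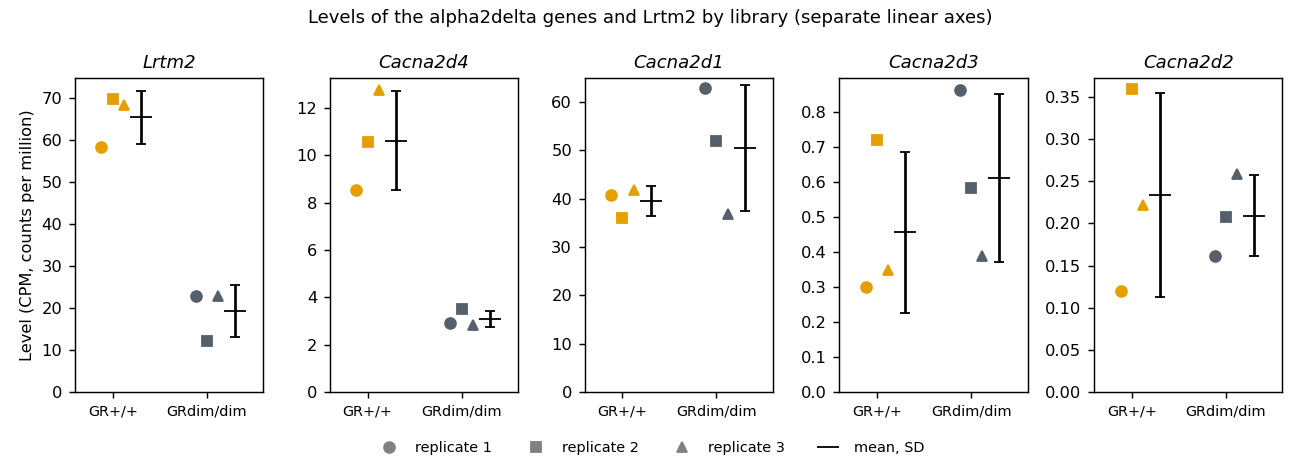
Levels in CPM (vertical axes, linear and separate for each gene) of the 5 genes in the 3 GR+/+ and 3 GRdim/dim libraries, with a symbol per replicate and black bars for the mean and SD. The GRdim/dim libraries lie at 12.3 to 22.9 CPM against 58.2 to 69.7 CPM for Lrtm2 and at 2.84 to 3.49 CPM against 8.55 to 12.7 CPM for Cacna2d4, and the genotypes overlap for the other 3 genes.

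Libraries of the genotypes overlapped for the other alpha2delta genes. *Cacna2d1* (ENSMUSG00000040118, chr5:15934691-16374511, plus strand) was at 40.8, 36.1 and 41.8 CPM in GR+/+ replicates 1, 2 and 3 and at 62.8, 51.8 and 36.9 CPM in GRdim/dim replicates 1, 2 and 3. GRdim/dim replicate 3 lay within the GR+/+ range and the other GRdim/dim libraries above it. The means were 39.6 ± 3.04 CPM in GR+/+ and 50.5 ± 13 CPM in GRdim/dim (SD, 3 libraries each). The log2 fold change was 0.35 (SE 0.21).

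*Cacna2d3* (ENSMUSG00000021991, chr14:28904943-29721864, minus strand) was near the limit of detection, with 5, 12 and 11 counts in GR+/+ and 16, 14 and 6 counts in GRdim/dim replicates 1, 2 and 3. Its levels of 0.299 to 0.719 CPM and 0.387 to 0.863 CPM overlapped, and the log2 fold change was 0.45 (SE 0.57). *Cacna2d2* (ENSMUSG00000010066, chr9:107399612-107529343, plus strand) had 2, 6 and 7 counts in GR+/+ and 3, 5 and 4 counts in GRdim/dim libraries, too few for the fit. A difference of these genes between genotypes was not detectable at this depth.

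Of the 5 genes, 4 had enough reads to be fitted. Of these, 2 were past an adjusted p-value of 0.05 and a log2 fold change beyond 0.5, *Cacna2d4* and *Lrtm2*, with both edgeR and DESeq2. Over all genes, edgeR put 0.169% past this threshold (0.0966% lower and 0.0724% higher in GRdim/dim) and DESeq2 put 1.71% there. Libraries of the genotypes did not overlap for 14.8% of all genes, 7.05% with GRdim/dim lower and 7.77% with it higher. As the genes were chosen on this contrast, nothing is read from their count. Lung tissue was sequenced whole, so fewer cells of a type and less RNA per cell cannot be told apart.

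The relation of the pair within libraries was followed by the ratio of their reads. *Lrtm2* had 6.81, 6.60 and 5.36 times the reads of *Cacna2d4* in GR+/+ replicates 1, 2 and 3 and 7.87, 3.51 and 8.02 times in GRdim/dim replicates 1, 2 and 3. The ratios of the genotypes overlapped, and GRdim/dim replicate 2, the lowest library for *Lrtm2* and the highest GRdim/dim library for *Cacna2d4*, had the lowest ratio. Over the 6 libraries, the log2 levels of the pair had a Pearson's r of 0.91 as a description, and after removal of the genotype means r was -0.27. The points share the genotype step, and no order within a genotype is read from 3 libraries.

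The difference of the pair was also read separately in libraries with *Xist* and in libraries with Y-linked reads, since the genotypes differ in the sex of their mice. Among libraries with *Xist*, *Lrtm2* was at 69.7 and 68.3 CPM in GR+/+ and 12.3 CPM in GRdim/dim. Among those with Y-linked reads, it was at 58.2 CPM in GR+/+ and at 22.9 and 22.8 CPM in GRdim/dim. *Cacna2d4* was at 10.6 and 12.7 against 3.49 CPM in the first set and at 8.55 against 2.91 and 2.84 CPM in the second. Both genes were lower in GRdim/dim in both sets, which hold 1 library of a genotype each and allow no test.

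Levels of different genes were compared per length, as CPM per kilobase of the deposited gene length (RPKM). That length merges the exons of all annotated transcripts, 12416 bases for *Cacna2d1* and 4102 for *Lrtm2*. Their longest transcripts have 7436 and 4001 exonic bases, so ratios between genes depend on the length used, and lengths of single transcripts were not tried. *Lrtm2* was at 14.2, 17.0 and 16.6 RPKM in GR+/+ and 5.59, 2.99 and 5.56 RPKM in GRdim/dim libraries, and its mean level lay at the 83.1th percentile of the 31368 genes with a count. *Cacna2d1* followed with 2.91 to 5.06 RPKM over the 6 libraries (68.9th percentile). *Cacna2d4* was at 0.902 to 1.34 RPKM in GR+/+ and 0.300 to 0.368 RPKM in GRdim/dim libraries (52.9th percentile). *Cacna2d3* reached at most 0.0989 RPKM and *Cacna2d2* at most 0.0453 RPKM, at the 26.3th and 17.2th percentiles.

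The 4 neighbouring pairs in this order were compared by a two-sided exact sign-flip permutation test of the log2 ratio over the 6 libraries, with Benjamini-Hochberg adjustment over the 4 pairs. *Cacna2d1* exceeded *Cacna2d4* by a mean log2 ratio of 2.57 ± 1.19 (SD), higher in 6 of 6 libraries (exact p = 0.03125, the smallest possible with 6 libraries, adjusted 0.0417). The same p-values were found by the exact test for *Cacna2d4* over *Cacna2d3*, at 3.40 ± 1.35, and for *Cacna2d3* over *Cacna2d2*, at 1.11 ± 0.675, each in 6 of 6 libraries. For *Lrtm2* over *Cacna2d1* the test over all 6 libraries did not pass, at 1.25 ± 1.26 and higher in 5 of 6 libraries (exact p = 0.09375, adjusted 0.09375), and the SD includes the step between genotypes. In that pair *Lrtm2* was 4.32, 5.84 and 4.95 times *Cacna2d1* in GR+/+ and 1.10, 0.715 and 1.87 times in GRdim/dim libraries. By the deposited lengths, *Lrtm2* was above *Cacna2d1* in all 3 GR+/+ libraries by at least 4.32 times. Within a genotype, 3 libraries are too few for the test to pass. With 1 library left out, the exact test cannot go below 0.0625, so the order then has no call.

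**Figure D2:**
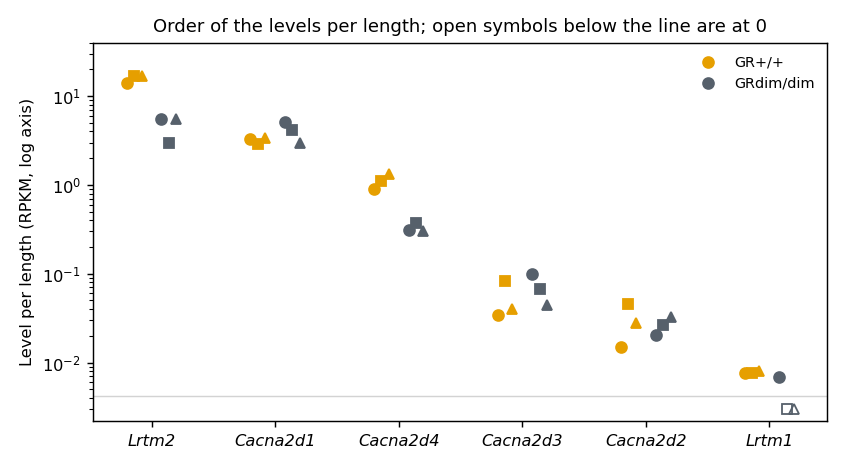
Level per length in RPKM (vertical, log axis) of the 5 genes and Lrtm1 in each GR+/+ and GRdim/dim library, with circles, squares and triangles for replicates 1, 2 and 3. Lrtm2 and Cacna2d1 lie at 2.91 to 17.0 RPKM, Cacna2d4 at 0.300 to 1.34 RPKM, and Cacna2d3 and Cacna2d2 below 0.1 RPKM. Open symbols below the grey line are libraries in which Lrtm1 is at 0.

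*Cacna2d1* made up most of the alpha2delta level in every lung. Its share of the summed RPKM of the 4 genes was 77.6%, 70.1% and 70.4% in GR+/+ and 92.2%, 90.1% and 88.8% in GRdim/dim replicates 1, 2 and 3. *Cacna2d4* made up 21.3%, 26.8% and 28.1% in GR+/+ and 5.60%, 7.94% and 8.94% in GRdim/dim libraries. The shares follow from the levels above, depend on the same gene lengths and add no independent measure. Of the windows of 31 bases in the transcripts of these 5 genes, 0.304% to 0.805% also occur in another gene.

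The same arrangement exists once more in the family. *Lrtm1* (ENSMUSG00000045776, chr14:29018208-29033645, plus strand), the closest relative of *Lrtm2*, lies in intron 27 of the 37 introns of the longest *Cacna2d3* transcript, on the opposite strand and with 0 shared exon bases. *Lrtm1* had 1, 1 and 2 counts in GR+/+ and 1, 0 and 0 counts in GRdim/dim libraries. All of these lie below the floor of 3 counts, so no fold is given. Of the paired loci, only *Cacna2d4* and *Lrtm2* therefore had reads enough for a description of both genes.

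Across the genome, 207 pairs of protein-coding genes had 1 gene nested inside the other on the opposite strand and both fitted. Both genes were lower in every GRdim/dim library than in every GR+/+ library in 5 pairs (2.42%), *Lrtm2* and *Cacna2d4* among them. Both were higher in 0 pairs. Of all single genes, 7.05% were lower and 7.77% higher without overlap. The share for pairs of genes that are not nested was not computed, so nothing is read from the count. Since this pair was chosen on the contrast, its place in the count is a description.

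The fitted genes around the pair had log2 fold changes between -0.36 and 0.40, and their libraries overlapped between genotypes. Within 250000 bases of *Cacna2d4* or *Lrtm2* lay 7 other genes, of which 6 were fitted. Their log2 fold changes were 0.06 for *Cacna1c*, the pore subunit of the cardiac and smooth muscle L-type channel, -0.17 for *Dcp1b*, -0.36 for *Adipor2*, 0.40 for *Wnt5b*, 0.10 for *Fbxl14* and -0.12 for *Erc1*. *Adipor2*, an adiponectin receptor whose gene ends 743 bases from the end of *Cacna2d4*, was at 197, 179 and 225 CPM in GR+/+ and 148, 182 and 139 CPM in GRdim/dim libraries. Its genotypes overlapped (SE 0.18, edgeR adjusted p = 0.566). *Cacna1c* was at 57.9, 53.8 and 34.9 CPM in GR+/+ and 53.4, 56.6 and 42.2 CPM in GRdim/dim libraries (SE 0.22, edgeR adjusted p = 0.969).

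**Figure D3:**
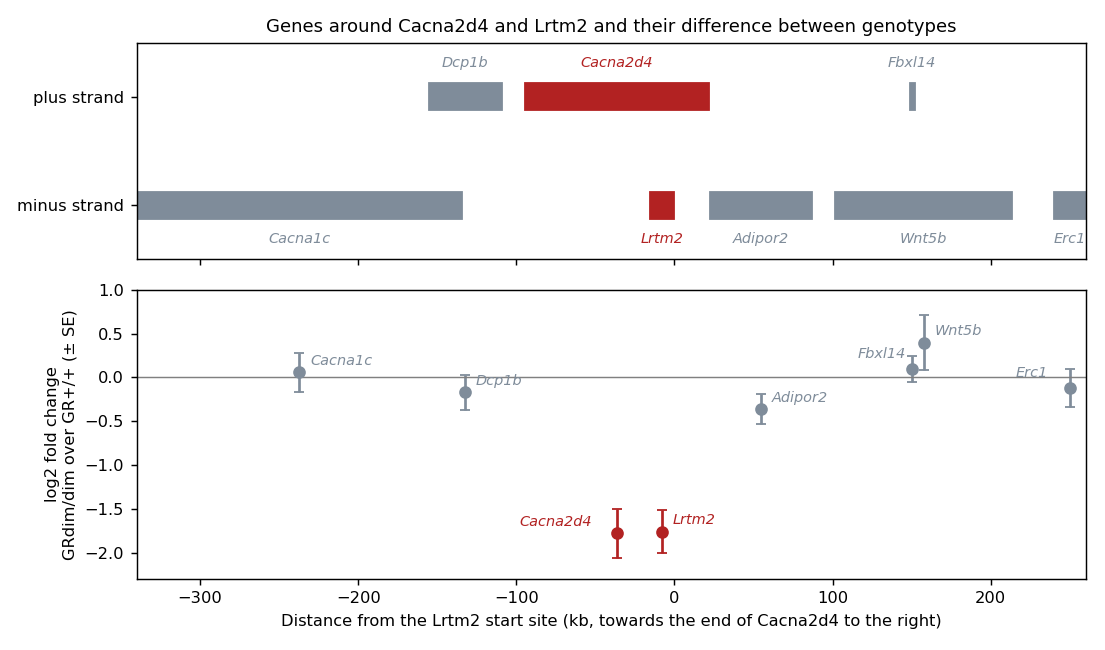
Genes within reach of Cacna2d4 and Lrtm2 by strand (upper panel, boxes to scale, horizontal axis in kb from the Lrtm2 start) and their log2 fold changes of GRdim/dim over GR+/+ with SE bars (lower panel, each at the middle of the box). Cacna2d4 and Lrtm2, drawn in red, lie at -1.78 and -1.76, and the 6 fitted neighbours lie between -0.36 and 0.40. Cacna1c and Erc1 extend past the edges of the panel.

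Around all 5 genes there were 78 genes within that distance, of which 33 were fitted. Neither edgeR nor DESeq2 put any of the 33 past the threshold (0 with each). At an unadjusted edgeR p-value under 0.05 there was 1 neighbour, lower in GRdim/dim, and over all genes 9.6% had such a p-value. Libraries did not overlap for 3 of the 33 neighbours, all higher in GRdim/dim, against 14.8% of all genes. These 3 lay near *Cacna2d2*.

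Other genes around these were read from 5 lists with 68 genes, of which 43 were fitted: pore subunits, beta and gamma subunits, partners and relatives of alpha2delta, calcium release and store entry, and leucine-rich repeat relatives of *Lrtm2*. With edgeR, 0 of the 43 were past the threshold, and 6 had an unadjusted p-value under 0.05, 3 higher and 3 lower in GRdim/dim. Over all genes, 4.91% were higher and 4.68% lower at that level. With DESeq2, 3 were past the threshold (6.98%), 1 higher and 2 lower, against 1.71% of all genes. The lists were chosen with earlier results of these data known, so nothing is read from these counts. Libraries did not overlap for 6 of the 43 (14%), a share near the 14.8% of all genes. The median log2 fold change of the 43 genes was 0.01, and that of all genes was 0.01.

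The pore subunits, which conduct the calcium, had 8 of 10 genes fitted, with a median log2 fold change of 0.07 and none past the threshold with either tool (0 at an unadjusted edgeR p-value under 0.05). The most abundant per length was *Cacna1d*, an L-type pore subunit, at a mean of 2.96 RPKM and with a log2 fold change of -0.26. This rank depends on the merged gene lengths, 12621 bases for *Cacna1d* and 21191 for *Cacna1c*. In CPM *Cacna1c* was higher, with means of 48.9 in GR+/+ and 50.7 in GRdim/dim, against 40.8 and 34.0 for *Cacna1d*. The beta and gamma subunits, which modulate the pore from inside or beside it, had 5 of 12 genes fitted, with a median of 0.16. None of these 5 was past the threshold with either tool (0 at an unadjusted edgeR p-value under 0.05). The most abundant was *Cacnb3* at a mean of 5.33 RPKM, with 19.4, 20.6 and 20.6 CPM in GR+/+ and 16.8, 29.4 and 21.6 CPM in GRdim/dim libraries. The GR+/+ range of *Cacnb3* lay within that of GRdim/dim.

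The partners and relatives of alpha2delta subunits, thrombospondins, *Lrp1* and the alpha2delta-like *Cachd1*, had 5 of 7 genes fitted, with a median of -0.28. *Thbs3*, a secreted thrombospondin of the matrix, was at 72.3, 63.4 and 79.8 CPM in GR+/+ and at 31.9, 37.7 and 44.0 CPM in GRdim/dim replicates 1, 2 and 3. All 3 GRdim/dim libraries lay below all GR+/+ libraries. Its log2 fold change was -0.93 (SE 0.18), which did not pass with edgeR (adjusted p = 0.105) and passed with DESeq2 (adjusted p = 0.00234). Over 11 alternative edgeR fits the adjusted p of *Thbs3* was 0.00173 to 0.302, below the threshold in 1, without a filter on low counts. *Thbs1*, the most abundant gene of this list per length at a mean of 83.5 RPKM, was at 564, 172 and 208 CPM in GR+/+ and 1073, 356 and 668 CPM in GRdim/dim libraries. The genotypes of *Thbs1* overlapped, through GR+/+ replicate 1, and its log2 fold change of 1.15 (SE 0.51) did not pass with edgeR (adjusted p = 0.520).

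Genes of calcium release and store entry, which supply calcium from inside the cell or refill the stores, were all fitted (14 of 14), with a median log2 fold change of -0.21. *Itpr3*, a calcium release channel of the endoplasmic reticulum gated by inositol trisphosphate, was at 142, 140 and 135 CPM in GR+/+ and 76.3, 92.5 and 88.8 CPM in GRdim/dim replicates 1, 2 and 3. The groups did not overlap. Its log2 fold change of -0.69 (SE 0.15) did not pass with edgeR (adjusted p = 0.152) and passed with DESeq2 (adjusted p = 0.0145). Over the same edgeR alternatives the adjusted p of *Itpr3* was 0.0356 to 0.382, again below the threshold in 1. *Atp2a2*, the calcium pump of the endoplasmic reticulum and the most abundant gene of the list at a mean of 83.3 RPKM, had a log2 fold change of 0.10.

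The leucine-rich repeat relatives of *Lrtm2*, mostly adhesion proteins of neurons, had 11 of 25 genes fitted, with a median log2 fold change of 0.00. *Lrrc4b*, which encodes a synaptic adhesion protein, was at 1.43, 1.62 and 0.731 CPM in GR+/+ and 2.97, 3.78 and 5.94 CPM in GRdim/dim replicates 1, 2 and 3. It was the listed gene with the highest log2 fold change, 1.76 (SE 0.43), opposite in sign to that of *Lrtm2*. It did not pass with edgeR (adjusted p = 0.206) and passed with DESeq2 (adjusted p = 0.0135), and over the edgeR alternatives its adjusted p was 0.00677 to 0.415, below the threshold in 1. *Flrt3*, the most abundant of these relatives at a mean of 12.6 RPKM, had a log2 fold change of 0.05.

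**Figure D4:**
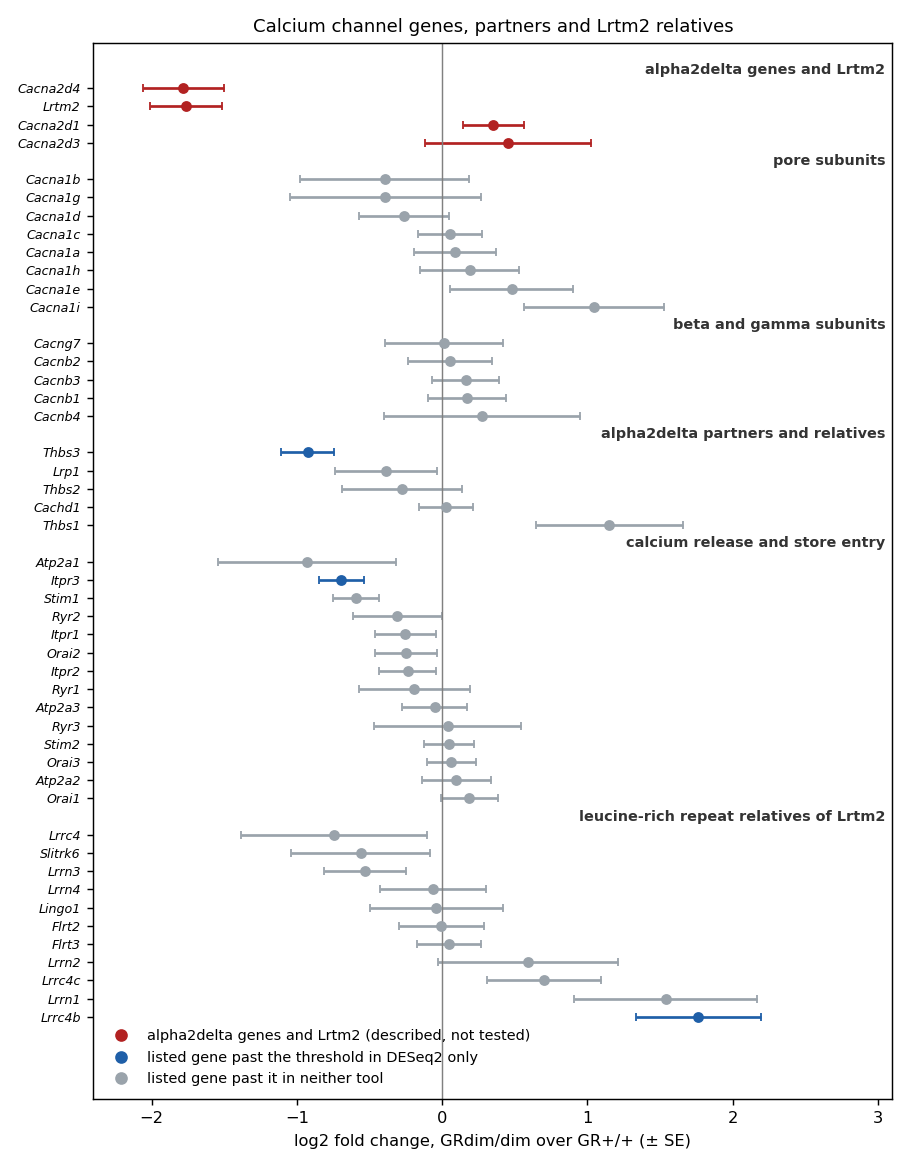
Log2 fold change of GRdim/dim over GR+/+ (horizontal axis, bars for SE) for the 4 fitted alpha2delta and Lrtm2 genes (red) and the 43 fitted genes of the 5 lists. Blue marks Thbs3, Itpr3 and Lrrc4b, which passed the threshold with DESeq2 and not with edgeR. Cacna2d4 and Lrtm2 lie at -1.78 and -1.76, below all 43 listed genes, whose lowest value is -0.93. The pair was chosen on this contrast, so its place below the listed genes is a description.

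The genes with the levels most like those of the pair over the 6 libraries were found by Pearson's r of log2 CPM among all fitted genes, as a description. For *Cacna2d4* these were *Rhpn2* (r = 0.989), *Tcf23* (0.986), *1700008B11Rik* (0.984), *Cyp4a32* (0.983) and *Cutal* (0.983). For *Lrtm2* they were *Pdha1* (0.992), *Olfr1402* (0.991), *Gm26823* (0.989), *Gm20427* (0.982) and *Prpf3* (0.982). All 10 were lower in every GRdim/dim library than in every GR+/+ library, as were 7.05% of all genes. The direction follows from the ranking, since the pair itself was chosen for its genotype difference, so nothing is read from it. No gene was in both lists. The size of the difference varied among the 10 genes, from a log2 fold change of -0.36 for *Pdha1*, a subunit of mitochondrial pyruvate dehydrogenase, to -2.47 for *Olfr1402*. The value of *Olfr1402* (SE 0.64, edgeR adjusted p = 0.237) rests on few reads. It had 17, 22 and 42 counts in GR+/+ and 6, 1 and 5 counts in GRdim/dim replicates 1, 2 and 3. *Tcf23*, a transcription factor of the helix-loop-helix family, was at 2.99, 4.50 and 4.07 CPM in GR+/+ and 0.917, 0.955 and 0.646 CPM in GRdim/dim libraries.

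Markers of the cell types that the lung samples could hold were summed in 14 lists. The sums overlapped between genotypes in 12 lists and did not in 2. Over all single genes, libraries did not overlap for 14.8%, and nothing is read from the count of lists. Summed B cell markers were higher in GRdim/dim (128 to 440 CPM against 50.6 to 120 CPM). Summed T cell markers were also higher (32.1 to 40.2 CPM against 13.8 to 28.3 CPM). In each of these 2 lists, 6 of 6 markers were fitted at a higher level, with 0 past the edgeR threshold. The B cell separation rested on *Ighm*, at 74.2 to 356 CPM in GRdim/dim and 27.6 to 65.4 CPM in GR+/+ libraries: without it, a choice made after the values were seen, the other 5 markers summed to 54.1 to 84.1 CPM and 22.9 to 54.7 CPM and overlapped. Neutrophil markers were also fitted at a higher level in 6 of 6, with sums of 343 to 1095 CPM in GRdim/dim and 248 to 484 CPM in GR+/+ libraries that overlapped. Pulmonary vein cardiomyocyte markers, 10 in all, summed to 163 to 999 CPM in GR+/+ and 449 to 924 CPM in GRdim/dim libraries. Smooth muscle markers, 7 in all, summed to 263 to 660 CPM and 495 to 671 CPM. Markers of photoreceptors, the cells for which *Cacna2d4* is best known, summed over 6 genes to 2.22 to 5.62 CPM in GR+/+ and 0.969 to 4.61 CPM in GRdim/dim libraries, with *Nrl* at 0 in every library. Those of neurons and neuroendocrine cells, 8 in all, summed to 29.7 to 41.6 CPM and 31.4 to 49.4 CPM. The part of the B cell, T cell and neutrophil markers in the differences of *Cacna2d4* and *Lrtm2* was not tested.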

How the data were processed

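RNA from lung tissue of 6 mice was deposited by the authors as raw read counts per gene, whole numbers without normalization, with the gene length in a column of its own. RNA was captured by poly(A). The aligner, the counting tool and the use of strand are not given in the sources used here. The submitters' processing notes name the build mm10 and DESeq2. Of 54532 gene identifiers, 54409 were found in GENCODE M21 of GRCm38, 53462 with the same coordinates and strand. Genotype and replicate number were taken from the sample labels. Sex, age and treatment come from the study's methods, which give sex per genotype and not per library. Single libraries were assigned by their *Xist* and Y-linked reads.

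Counts were fitted in R 4.3.3 with the robust quasi-likelihood test of edgeR 4.0.16, after filterByExpr and TMM scaling, across 16568 genes, with Benjamini-Hochberg adjustment over all of them, and with DESeq2 1.42.0 as an alternative (adjusted p-values for 15917 genes). Genes past the threshold had a log2 fold change beyond 0.5 and an adjusted p-value below 0.05. The log2 levels had a prior count of 2. Libraries of the same genotype were not identical and differed beyond sampling noise (chi-square per degree of freedom of 13.9 to 44.1). Each lung was 1 replicate, and 1 mouse was handled per day. The fits were tested on simulated counts, where the share of false calls was above 0.05 with both tools and larger with DESeq2 than with edgeR. The 5 genes and the gene lists were chosen with earlier results of these data known. The genes named were the 5 genes, listed genes past the threshold in either tool, the most abundant gene per length in each list, *Lrtm1*, fitted neighbours of the pair, the 5 genes most like each of *Cacna2d4* and *Lrtm2*, and markers. Promoters came from RefSeq, which matched 4 of the 5 genes.

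Alternatives were DESeq2, RLE scaling, no filter, a minimum of 10 counts per library, no threshold on the fold change, merged exon lengths, a block for the replicate number, a sex covariate (*Xist* against Y-linked genes), and each library left out in turn.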

Additional observations from a re-analysis of the deposited data

How the results depend on the processing

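The log2 fold changes of the 4 fitted genes kept their sign under every alternative that could be fitted, at -1.91 to -1.63 for *Cacna2d4*, -1.93 to -1.52 for *Lrtm2*, 0.17 to 0.54 for *Cacna2d1* and 0.25 to 0.90 for *Cacna2d3*. Libraries of the genotypes do not overlap for *Cacna2d4* and *Lrtm2*, so leaving out a library could not turn their sign, and nothing is read from it. *Cacna2d3* could not be fitted with at least 10 counts in every library or without GRdim/dim replicate 1. The place of the pair past the edgeR threshold was less stable: with 1 library left out, *Cacna2d4* was past it in 0 of 6 fits and *Lrtm2* in 1 of 6, the fit without GRdim/dim replicate 2. With the replicate number as a block (replicate block), *Cacna2d4* was at -1.77 and no longer past the threshold, *Lrtm2* was at -1.81 and past it, and 34 genes in all were past it. With the covariate for sex-linked expression they were at -1.64, no longer past the threshold, and at -1.93, past it. Whether the same replicate number marks paired mice is not given by the labels. Deviations of same-numbered libraries had correlations of 0.22, 0.04 and -0.05, and those of differently numbered libraries ranged from -0.27 to 0.19. Deviations from means of 3 libraries cannot decide it. Of all genes, 28 were past the threshold, 522 without a filter on low counts, 272 with DESeq2, and 4 to 22 with 1 library left out (12, 4 and 17 without GR+/+ replicates 1, 2 and 3, 14 without GRdim/dim replicate 3). Of the listed genes, 0 were past it, and 3 were without a filter and 3 with DESeq2. Of the neighbours, 0 were past it under every alternative. The mean log2 ratio between neighbours in the level order was 2.28 to 2.82 for *Cacna2d1* over *Cacna2d4*, 3.07 to 3.75 for *Cacna2d4* over *Cacna2d3* and 0.87 to 1.24 for *Cacna2d3* over *Cacna2d2* with 1 library left out, where 5 libraries cannot give an exact p-value below 0.0625. Merged exon lengths were identical to the deposited lengths, so that alternative could not change a ratio, and lengths of single transcripts were not tried. The cause of the other changes was not tested. Counts of 2 to 16 per library limit what can be said of *Cacna2d2* and *Cacna2d3*.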
